A study of Homo sapiens with 27 samples.

Results

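Cells carrying TADA2B guide 2 were compared with cells carrying TADA2B guide 1 after 24 h in 1 μM vemurafenib, with 3 RNA sequencing libraries for each guide, 6 of the 27 libraries of the series. The members were the 6 libraries whose labels give the treatment vemurafenib and the genotype TADA2B KO, split by the guide named in their titles. All cells were A375, an established human melanoma line driven by mutant BRAF, a kinase. The remaining libraries were used for context: cells with a guide against GFP, labelled WT and called the control guide here, in vemurafenib, and all 3 kinds of cells in 20 nM trametinib or in DMSO, with 3 libraries in each of the 9 groups. The labels do not say whether the cells of each guide were 1 clone or a mixture. They also do not give separate cultures for the replicates, so p-values measure only how these libraries vary, and that variation may be technical. Both guides carry the same genotype label, so the comparison asks how far cells made with different guides against 1 gene differ from each other.

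TADA2B is an adaptor subunit of SAGA, a chromatin complex that acetylates histone tails through KAT2A or KAT2B and removes ubiquitin from histones through USP22. Vemurafenib inhibits mutant BRAF and trametinib inhibits the kinases MEK1 and MEK2 below it, so both lower signalling through ERK. Melanoma cells under such drugs are known to take up several states, described by melanocyte genes under MITF, neural crest genes such as SOX10 and NGFR, or undifferentiated genes such as AXL and EGFR.

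The targeted gene comes first, since it is the check that the transcript allows. TADA2B (ENSG00000173011, hg38 chromosome 4, 7041899 to 7057952, plus strand) had 27.6, 29.3 and 28.6 CPM (counts scaled to a common library size with the TMM factor) with guide 2, against 32.2, 31.8 and 33.8 CPM with guide 1 and 42.5, 43.7 and 45.2 CPM with the control guide. All 3 libraries of guide 2 lay under all 3 of guide 1, and these under the control libraries. The difference between the guides was small and passed the test (log2 -0.19 ± 0.043, adjusted p = 0.000565; an error after a log2 value is its standard error). In DMSO, TADA2B averaged 28.6 CPM with guide 2, 30.4 CPM with guide 1 and 31.2 CPM with the control guide. There neither the guides (adjusted p = 0.205) nor guide 1 and the control guide (0.522) were called different. The guide differences in vemurafenib and in DMSO were not themselves called different (adjusted p = 0.472). In trametinib TADA2B averaged 29.3 CPM with guide 2 and 34.9 CPM with guide 1, and was called lower (log2 -0.25 ± 0.042, adjusted p = 6.9e-06). A guide can disrupt a protein without removing its transcript, so the level does not say how much TADA2B protein either population held. CCDC96 and an antisense gene overlap TADA2B on the other strand, at 2.67 to 3.35 CPM and under 0.1 CPM, and whether counting used strand is not given in the sources used here.

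Library totals in the whole series lay between 67502300 and 92513726 counts, and the common biological coefficient of variation was 4.02%. Among the 6 libraries, the first principal component held 65.2% of the variance and set the guides apart. The second held 14.3% and set replicate 3 of guide 2 apart, at -11.21 against 7.59 and 3.73 for the other guide 2 libraries, and its counts differed more from theirs (chi-square per degree of freedom 12 and 8.18, against 3.44 between the other two). Mitochondrially encoded genes took 3.374% ± 0.221 of counts with guide 2 and 3.497% ± 0.096 with guide 1 (SD, n = 3 each). Melanocyte lineage markers summed to between 433.6 and 458.2 CPM with guide 2 and between 718.4 and 739.9 CPM with guide 1, mostly through SOX10. TYR was at 0 in every guide 2 library, and MLANA stood between 1.22 and 1.44 CPM with guide 2 and between 0.938 and 1.43 CPM with guide 1. DCT, a melanin enzyme, stood between 65.8 and 70.7 CPM with guide 2 and between 93.8 and 96.9 CPM with guide 1. The 6 leukocyte markers summed to between 15.4 and 16.6 CPM with guide 2 and between 18.8 and 19.9 CPM with guide 1, nearly all of it from LYZ, which stood between 14.0 and 15.1 CPM with guide 2 and between 17.2 and 18.4 CPM with guide 1. CD3E and TYROBP, the endothelial marker CLDN5, and the keratinocyte markers DSG3 and PKP1 were at or near 0 in both guides.

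Across 25199 tested genes, 4026 differed between the guides at an adjusted p under 0.05, which is 16% of those tested. Guide 2 cells were higher for 1795 of them (7.12%) and lower for 2231 (8.85%). The libraries of the guides did not overlap for 6934 tested genes and for 3801 of the 4026 called. Non-overlap was thus usual among called genes and does not single out those named below. In libraries of whole populations, fewer cells of a type and less RNA per cell cannot be told apart. The median size among called genes was 0.27 on the log2 scale, and 290 genes were called and changed at least 2-fold, 75 upward and 215 downward. Of 14191 genes at a mean level of at least 1 log2 CPM, called well expressed here, 3528 were called (24.9%), and among them 2 genes were called and at least 2-fold higher, against 75 that were at least 2-fold lower. Without replicate 3 of guide 2, 3988 genes were called, 275 of them at least 2-fold.

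**Figure D1:**
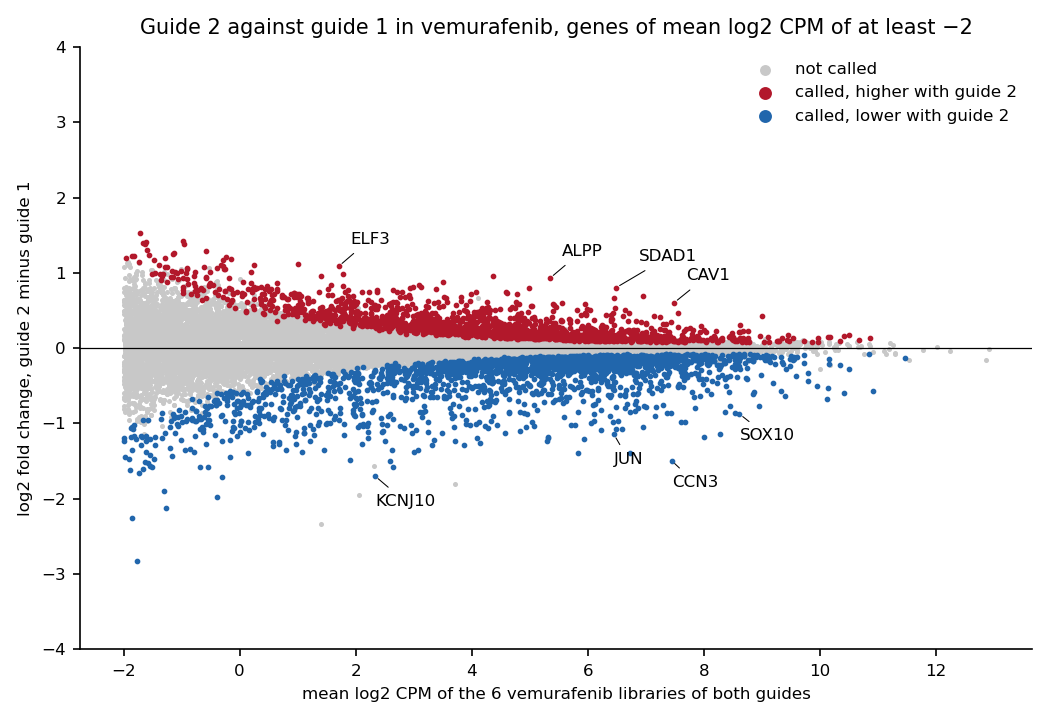
Log2 fold change of guide 2 minus guide 1 in vemurafenib against the mean log2 CPM of the 6 libraries, for the 20102 of 25199 tested genes at a mean log2 CPM of at least -2. Red and blue points are genes called higher and lower with guide 2, grey points were not called, and the points past 1 on the log2 scale at well expressed genes lie mostly below the axis.

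KAT2B, 1 of the acetyltransferases through which SAGA can act, differed between the guides. KAT2A was not among the SAGA genes called lower. KAT2B (chromosome 3, 20040023 to 20154404, plus strand), which writes histone acetylation in SAGA and in the related ATAC complex, had 171, 171 and 180 CPM with guide 2, against 304, 302 and 305 CPM with guide 1 and between 384.6 and 411.5 CPM with the control guide. The guides did not overlap, and KAT2B fell 1.74-fold (log2 -0.80 ± 0.031, adjusted p = 9.35e-26). Of 26 tested SAGA genes, 5 were called higher and 3 lower (30.8%, against 24.9% of well expressed genes; median log2 0.03). Besides KAT2B and TADA2B, the deubiquitinase USP22 was called lower at log2 -0.09. The reader subunit SGF29 had 10.1, 9.35 and 8.86 CPM with guide 2 and 7.42, 8.41 and 7.84 CPM with guide 1 (log2 0.26 ± 0.081, adjusted p = 0.0215), a call lost without replicate 1 or 3 of guide 1 (adjusted p = 0.119 and 0.0673) or without replicate 1 of guide 2 (0.131). The count of called SAGA genes fell to 3 without replicate 3 of guide 1, to 4 without replicate 1 of either guide, and to 4 with the 6 libraries fitted alone. It was 5 with no filter on low counts. Of 15 ATAC genes, 3 were called higher and 1 lower (26.7%, near the 24.9% of well expressed genes), and the total of 4 ranged from 1 without replicate 3 of guide 1 to 7 without replicate 3 of guide 2, with 2 without replicate 2 of guide 1 or replicate 1 of guide 2. Among 28 histone demethylases and deacetylases, 8 were called lower and the remaining 20 were not called. The share called, 28.6%, was near the 24.9% of well expressed genes called in either direction, but above the 13.7% called lower. The demethylase KDM7A (log2 -0.40 ± 0.053) and the deacetylase HDAC9 (-0.38 ± 0.061) led the list. The number called was 4 without replicate 1 of guide 1, and 5 without its replicate 2 or with the 6 libraries fitted alone.

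Genes of the neural crest-like state were lower with guide 2. Of 21 tested members, 14 were called lower and 3 higher (81%, against 24.9% of well expressed genes). Their median log2 fold change was -0.37 against 0.01 over all genes. In DMSO 15 members were called lower and 2 higher, and in trametinib 13 lower and 2 higher. SOX10 (chromosome 22, 37970686 to 37987422, minus strand), a transcription factor of the neural crest and melanocytes, had 303, 298 and 267 CPM with guide 2, against 523, 541 and 530 CPM with guide 1 and 1114, 1121 and 1064 CPM with the control guide. Guide 2 cells thus held the lowest SOX10 of all 3 kinds of cells in vemurafenib, 1.84-fold below guide 1 (log2 -0.88 ± 0.037, adjusted p = 1.17e-22). NGFR (chromosome 17, 49495293 to 49515017, plus strand), the low-affinity nerve growth factor receptor, had 19.1, 19.0 and 17.2 CPM with guide 2, against 33.2, 34.1 and 33.5 CPM with guide 1. It fell 1.82-fold (log2 -0.86 ± 0.050, adjusted p = 7.93e-19), and its control libraries averaged 115.8 CPM.

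GDNF, a neurotrophic factor, had 11.5, 12.4 and 11.8 CPM with guide 2 and 23.2, 23.0 and 25.7 CPM with guide 1, a 2.02-fold fall (adjusted p = 1.67e-20). The retinoid receptor RXRG fell 1.87-fold, with 3.07, 3.30 and 2.28 CPM with guide 2 and 6.11, 5.24 and 4.93 CPM with guide 1. ERBB3, a receptor for neuregulins, had 278, 281 and 264 CPM with guide 2 and 499, 498 and 505 CPM with guide 1 (log2 -0.87 ± 0.028, adjusted p = 5.68e-29). None of these libraries overlapped between the guides. The GDNF co-receptor GFRA2 was under 1 CPM in all 6 libraries, and its call (log2 -0.95 ± 0.31, adjusted p = 0.0264) was lost without replicate 1 or 2 of guide 1 (adjusted p = 0.0928 and 0.0737), without replicate 2 of guide 2 (0.249, at log2 -0.58), or with the 6 libraries fitted alone (0.0522). Within the same list SOX9, GFRA1 and AQP1 were called higher.

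Of 21 tested melanocyte differentiation genes, 8 were called lower and 2 higher (47.6% against 24.9% of well expressed genes, median -0.20). MITF (chromosome 3, 69739435 to 69968337, plus strand), the central melanocyte transcription factor, fell 1.12-fold, with 82.2, 88.5 and 90.1 CPM with guide 2 and 97.8, 97.6 and 96.9 CPM with guide 1 (log2 -0.16 ± 0.034, adjusted p = 0.000253). BCL2A1, an anti-apoptotic BCL2 protein that MITF can induce, fell 2.35-fold, with 1.58, 1.56 and 1.34 CPM with guide 2 and 3.46, 3.76 and 3.38 CPM with guide 1 (adjusted p = 4.23e-11). CITED1, a transcriptional co-regulator, fell 2.09-fold and stood between 0.516 and 0.729 CPM with guide 2, against 1.15 to 1.44 CPM with guide 1. Tyrosinase, TYR, the first enzyme of melanin synthesis, had 0 counts in all guide 2 libraries and 7, 3 and 9 counts with guide 1. TYR was called lower (adjusted p = 0.00159). A limit of 3 counts over the 3 guide 2 libraries lay 6.3-fold under the observed guide 1 level. That figure leaves out the counting error of guide 1 and is not a bound. In contrast TYRP1, another melanin enzyme, was higher, with 2.20, 2.04 and 2.27 CPM with guide 2 and 1.25, 1.57 and 1.32 CPM with guide 1 (log2 0.65 ± 0.20, adjusted p = 0.0138). Leaving out replicate 1 or 3 of guide 1 ended the TYRP1 call (adjusted p = 0.0707 and 0.0608).

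Undifferentiated genes moved both ways, with 14 of 27 called higher and 7 lower (77.8% against 24.9% of well expressed genes, median 0.13). CAV1 (chromosome 7, 116524785 to 116561184, plus strand), the coat protein of caveolae, rose 1.52-fold, with 217, 218 and 228 CPM with guide 2, against 148, 147 and 142 CPM with guide 1 and 56.7 CPM on average with the control guide. EGFR rose 1.28-fold, with 26.2, 23.8 and 23.1 CPM with guide 2 and 18.8, 19.5 and 18.8 CPM with guide 1 (log2 0.36 ± 0.053). AXL, a receptor tyrosine kinase, rose 1.12-fold, with 164, 164 and 154 CPM with guide 2 and 141, 144 and 147 CPM with guide 1, both under the control mean of 173 CPM. The guides did not overlap for these 3 genes. The matrix glycoprotein TNC fell 1.55-fold, with 540, 549 and 528 CPM with guide 2 and 816, 838 and 857 CPM with guide 1 (adjusted p = 4.05e-23).

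**Figure D2:**
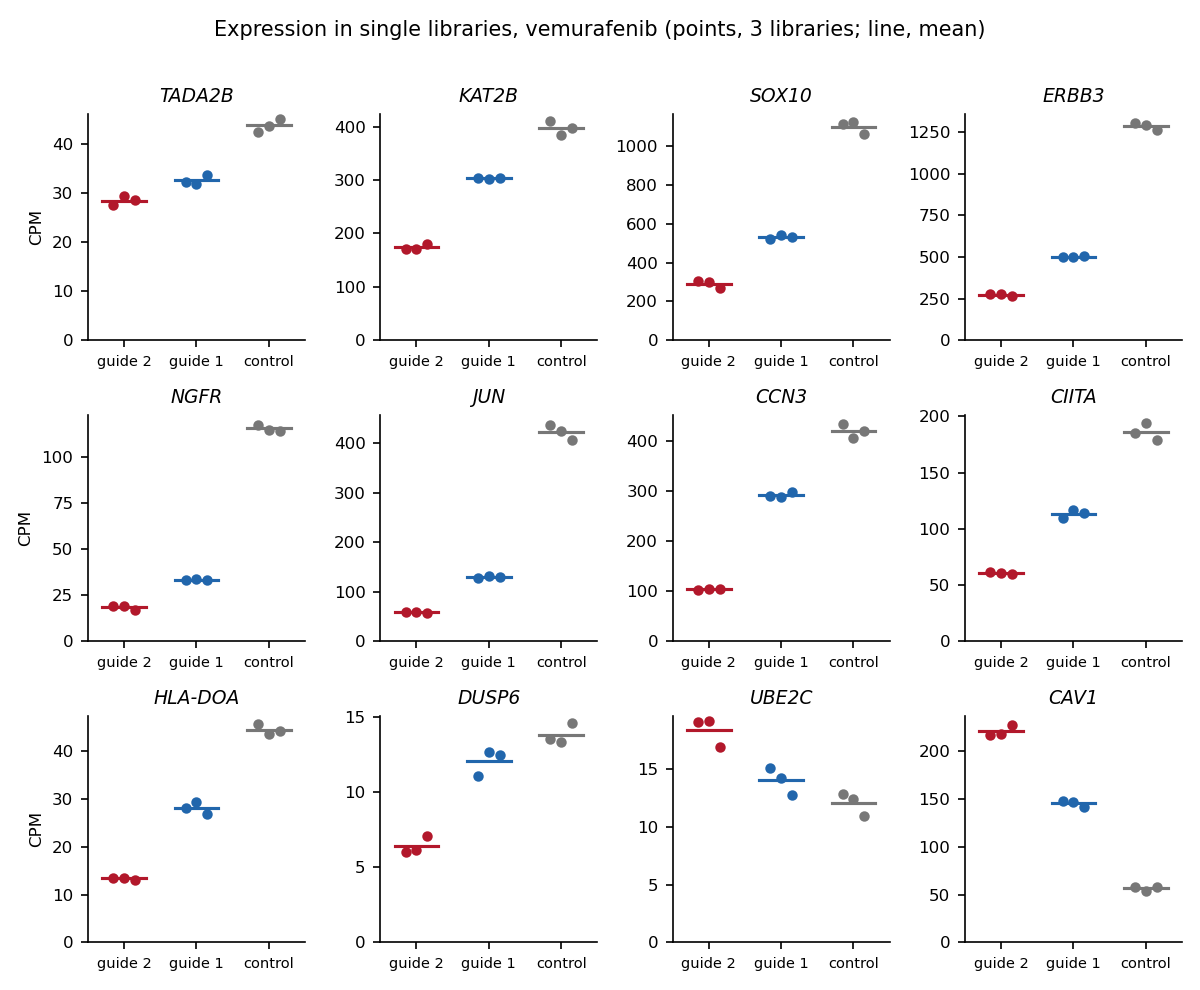
CPM in each vemurafenib library of guide 2, guide 1 and the control guide for 12 genes, with axes from 0. Points are libraries and lines are means of 3. For the 12 genes plotted the guide 1 mean lies between the other means, which does not hold for every named gene (AXL, CCND1 and DLGAP5 are exceptions), and the guide 2 and guide 1 libraries do not overlap.

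Genes that ERK signalling drives were lower more often than higher with guide 2. Of 25 tested MAPK output genes, 11 were called lower, 2 higher and 12 were not called (median -0.10). Those called made 52%, against 24.9% of well expressed genes. In DMSO 15 of these genes were called lower and 3 higher, and in trametinib 10 lower and 2 higher. DUSP6 (chromosome 12, 89347232 to 89353271, minus strand), a phosphatase that inactivates ERK, fell 1.89-fold, with 6.01, 6.14 and 7.10 CPM with guide 2, against 11.1, 12.7 and 12.5 CPM with guide 1 and 13.5, 13.3 and 14.6 CPM with the control guide (log2 -0.92 ± 0.059, adjusted p = 1.12e-17). The guide 2 libraries lay under those of both other groups. The immediate early factor EGR3 fell 2-fold, with 3.18, 3.36 and 3.22 CPM with guide 2 and 6.54, 6.21 and 6.78 CPM with guide 1. DUSP4, a related nuclear phosphatase, had 78.5, 74.9 and 74.9 CPM with guide 2 and 116, 116 and 120 CPM with guide 1, a 1.54-fold fall (adjusted p = 3.33e-22). CCND1, cyclin D1, had 49.6, 47.5 and 51.0 CPM with guide 2 and 54.5, 53.6 and 54.1 CPM with guide 1, both above the control mean of 31.7 CPM (log2 -0.13 ± 0.034, adjusted p = 0.00412, but 0.0595 without replicate 2 of guide 2).

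The Sprouty inhibitors of receptor signalling did not move together. SPRY1 rose 1.47-fold between low levels, with 2.01, 2.85 and 2.55 CPM with guide 2 and 1.65, 1.97 and 1.44 CPM with guide 1 (adjusted p = 0.000795). SPRY4 had 3.52, 3.78 and 3.90 CPM with guide 2 and 3.87, 3.84 and 4.12 CPM with guide 1, which overlapped, and SPRY4 was not called (log2 -0.08 ± 0.067, adjusted p = 0.501). SPRY2 was called lower, at log2 -0.41.

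AP-1 is built of JUN and FOS proteins and drives many genes that respond to stress and growth signals. Of 13 tested members, 4 were called lower and 2 higher (46.2%, against 24.9% of well expressed genes). JUN (chromosome 1, 58780788 to 58784327, minus strand) had 59.6, 59.4 and 57.2 CPM with guide 2, against 128, 132 and 130 CPM with guide 1 and 437.4, 424.5 and 407.0 CPM with the control guide. It fell 2.21-fold (log2 -1.15 ± 0.037, adjusted p = 5.22e-29). FOS had 3.50, 3.50 and 3.81 CPM with guide 2 and 6.67, 6.55 and 6.19 CPM with guide 1 (log2 -0.84 ± 0.077). ATF3, a stress-induced partner of JUN, had 11.6, 11.5 and 11.7 CPM with guide 2 and 19.3, 21.9 and 19.9 CPM with guide 1 (log2 -0.81 ± 0.053). In each case the libraries of the guides lay well apart. FOSL2 fell 1.3-fold, and JUND and MAFK were called higher, at log2 0.16 and 0.31.

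MHC class II molecules carry peptides from outside the cell to CD4 T cells, and their genes are switched on together by the co-activator CIITA, which docks on factors bound to the X and Y boxes of their promoters. Of 14 tested members of this list, 12 were called lower with guide 2 and the remaining 2 were not called (median -0.56). Those called made 85.7%, against 24.9% of well expressed genes. The fall was not particular to vemurafenib, since 12 members were also called lower in DMSO (median -0.61) and 12 in trametinib (median -0.64). CIITA (chromosome 16, 10866222 to 10943021, plus strand) had 61.4, 61.0 and 59.5 CPM with guide 2, against 110, 116 and 114 CPM with guide 1 and 185.4, 194.3 and 179.3 CPM with the control guide. It fell 1.87-fold (log2 -0.91 ± 0.037, adjusted p = 7.02e-25). HLA-DOA (chromosome 6, 33004178 to 33009612, minus strand), a chain of a modulator of peptide loading, fell 2.09-fold, with 13.5, 13.5 and 13.2 CPM with guide 2 and 28.1, 29.4 and 26.8 CPM with guide 1. HLA-DQA1 fell 1.72-fold, with 14.7, 13.9 and 13.7 CPM with guide 2 and 23.2, 24.9 and 24.5 CPM with guide 1. HLA-DRB1 fell 1.57-fold, with 68.9, 67.6 and 64.2 CPM with guide 2 and 103, 106 and 106 CPM with guide 1; its reads can be shared with the near-identical HLA-DRB5, so the split between these genes is uncertain. CD74, the invariant chain and the most abundant member, fell 1.52-fold (log2 -0.60). The members not called were the protease CTSS (log2 -0.11) and the thiol reductase IFI30 (0.30, under 0.4 CPM in all 6 libraries).

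The promoters of 3 class II genes named above are shown, chosen because they hold both motifs, with the core of an X box (AGNAAC) and the Y box (ATTGG) in capitals. Each is the 150 bases before the gene's start in RefSeq on GRCh38.p14, 5′ to 3′ on the gene's strand. HLA-DOA lies at chr6:33009592-33009741 (minus strand), HLA-DQA1 at chr6:32637256-32637405 (plus strand) and HLA-DRB1 at chr6:32589849-32589998 (minus strand).
HLA-DOA: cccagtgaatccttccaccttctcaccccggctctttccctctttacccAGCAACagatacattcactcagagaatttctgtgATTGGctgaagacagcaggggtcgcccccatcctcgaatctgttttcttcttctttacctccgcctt
HLA-DQA1: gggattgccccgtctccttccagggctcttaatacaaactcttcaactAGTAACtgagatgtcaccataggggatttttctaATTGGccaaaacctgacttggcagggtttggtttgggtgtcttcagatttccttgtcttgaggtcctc
HLA-DRB1: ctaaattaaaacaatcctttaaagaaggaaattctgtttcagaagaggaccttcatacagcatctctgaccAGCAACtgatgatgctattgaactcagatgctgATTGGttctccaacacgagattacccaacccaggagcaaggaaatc
The pair of motifs, AGNAAC then 15 to 35 bases then ATTGG, read on both strands of a 300-base window, was found in 4 of the 11 class II genes that the promoter table holds (36.4%) and in 317 of 27305 genes (1.16%). CD74 and IFI30 were among the 7 class II genes in the table without it. The bases between the motifs number 28 in HLA-DOA, 28 in HLA-DQA1 and 27 in HLA-DRB1. A match describes the letters and says nothing about binding in these cells.

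Class I genes present peptides from inside the cell. Of 17 tested members 9 were called lower and the other 8 were not called (median -0.12). Those called made 52.9%, against 24.9% of well expressed genes. HLA-B had 228, 215 and 187 CPM with guide 2 and 273, 286 and 279 CPM with guide 1 (log2 -0.41 ± 0.045). HLA-E had 182, 173 and 167 CPM with guide 2 and 218, 218 and 216 CPM with guide 1 (log2 -0.32 ± 0.031). For HLA-B both guides lay above the control guide, which averaged 165 CPM, a different order from the class II genes.

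Genes of mitosis were higher with guide 2. Of 30 tested members of the G2/M list, 26 were called higher and the remaining 4 were not called (median 0.25). Those called made 86.7%, against 24.9% of well expressed genes. Without replicate 3 of guide 2 the number was 24. In trametinib 27 members were called higher (median 0.28) and in DMSO 13 (median 0.13), with 0 called lower in either. DLGAP5, a spindle protein, had 16.4, 16.3 and 16.7 CPM with guide 2 and 13.2, 12.7 and 11.6 CPM with guide 1, with the control mean of 14.8 CPM between them (log2 0.40 ± 0.052, adjusted p = 5.07e-08). UBE2C (chromosome 20, 45812576 to 45816957, plus strand), the ubiquitin-conjugating enzyme of the anaphase-promoting complex, rose 1.31-fold, with 19.0, 19.1 and 16.9 CPM with guide 2, against 15.1, 14.2 and 12.8 CPM with guide 1. The checkpoint kinase TTK had 9.50, 8.85 and 10.0 CPM with guide 2 and 7.60, 7.55 and 6.76 CPM with guide 1 (log2 0.37 ± 0.069). NUF2, a kinetochore protein, rose 1.24-fold. The differences were small in fold. These 4 genes did not overlap between the guides, as held for 3801 of the 4026 called genes. 

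**Figure D3:**
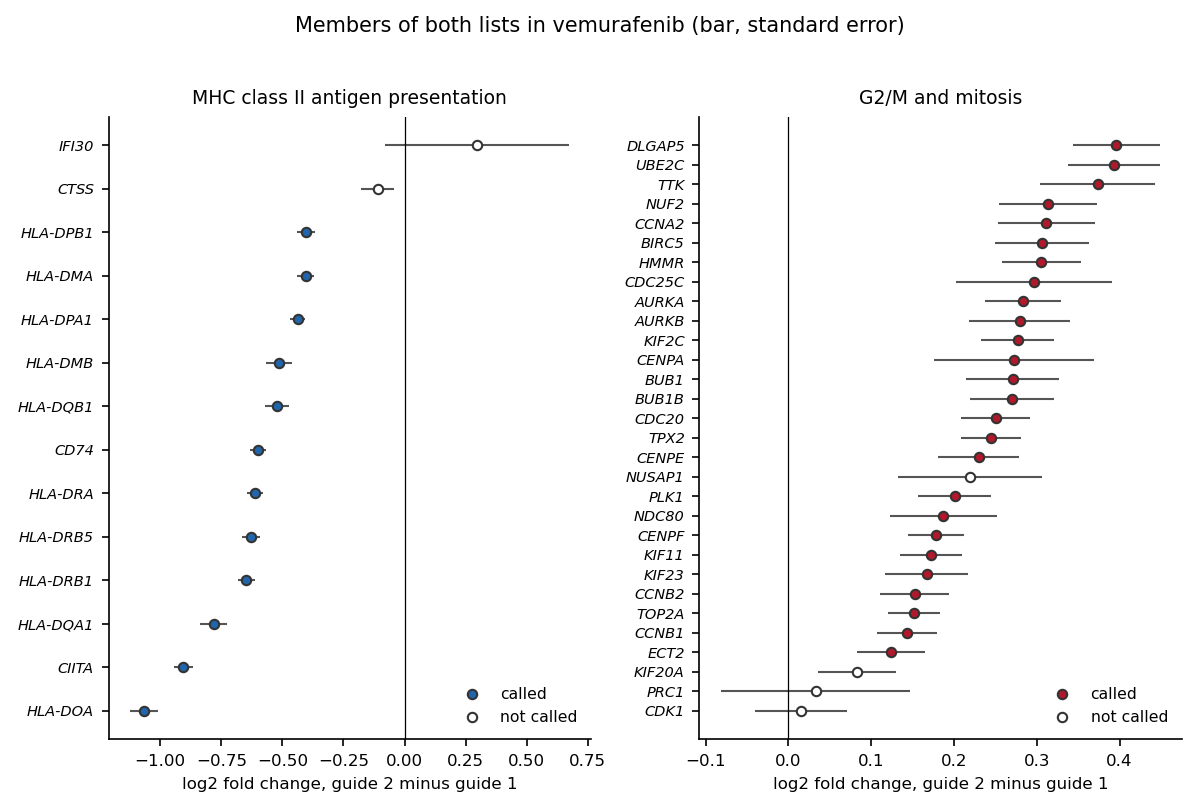
Log2 fold change of guide 2 minus guide 1 in vemurafenib for the tested members of the MHC class II and G2/M lists, with standard errors as bars. Filled points passed the test, 12 of 14 class II genes, all of them below 0, and 26 of 30 mitotic genes, all of them above 0.

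Many mitotic promoters hold a CHR element, TTTGAA, close to the start, through which the DREAM and MuvB complexes act. The kinase PLK1 (log2 0.20) and cyclin CCNB2 (log2 0.15) were both called higher, and their promoters, chosen because they hold TTTGAA, are shown in the same way, with it in capitals. PLK1 lies at chr16:23678739-23678888 and CCNB2 at chr15:59104996-59105145, both on the plus strand.
PLK1: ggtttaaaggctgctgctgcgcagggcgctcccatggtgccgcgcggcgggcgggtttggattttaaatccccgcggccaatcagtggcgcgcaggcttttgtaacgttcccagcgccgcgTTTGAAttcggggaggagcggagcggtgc
CCNB2: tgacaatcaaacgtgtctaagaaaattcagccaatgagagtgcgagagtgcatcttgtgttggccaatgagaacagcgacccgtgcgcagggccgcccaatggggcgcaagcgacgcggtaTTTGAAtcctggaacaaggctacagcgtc
The element began 29 bases before the start in both. TTTGAA, on either strand, was found in 18 of the 25 mitotic genes in the promoter table (72%) and in 18.2% of 27305 genes.

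Of 36 tested S phase genes, 15 were called higher and 1 lower (44.4%, median 0.13). POLE2, a subunit of DNA polymerase epsilon, rose 1.71-fold, with 1.55, 1.90 and 1.83 CPM with guide 2 and 0.868, 1.10 and 1.09 CPM with guide 1. The cell cycle factor E2F2 rose 1.59-fold, with 2.15, 2.13 and 1.89 CPM with guide 2 and 1.40, 1.26 and 1.22 CPM with guide 1. Neither gene overlapped between the guides. Beside these lists, the p53 target CDKN1A, an inhibitor of cell cycle kinases, had 345, 335 and 304 CPM with guide 2 and 384, 395 and 392 CPM with guide 1 (log2 -0.25 ± 0.033), and PMAIP1, a pro-death BCL2 family gene, rose 1.45-fold. Of 23 p53 targets 6 were called lower and 3 higher (39.1%), and of 16 BCL2 family genes 5 lower and 2 higher (43.8%). Of well expressed genes 24.9% were called.

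**Figure D4:**
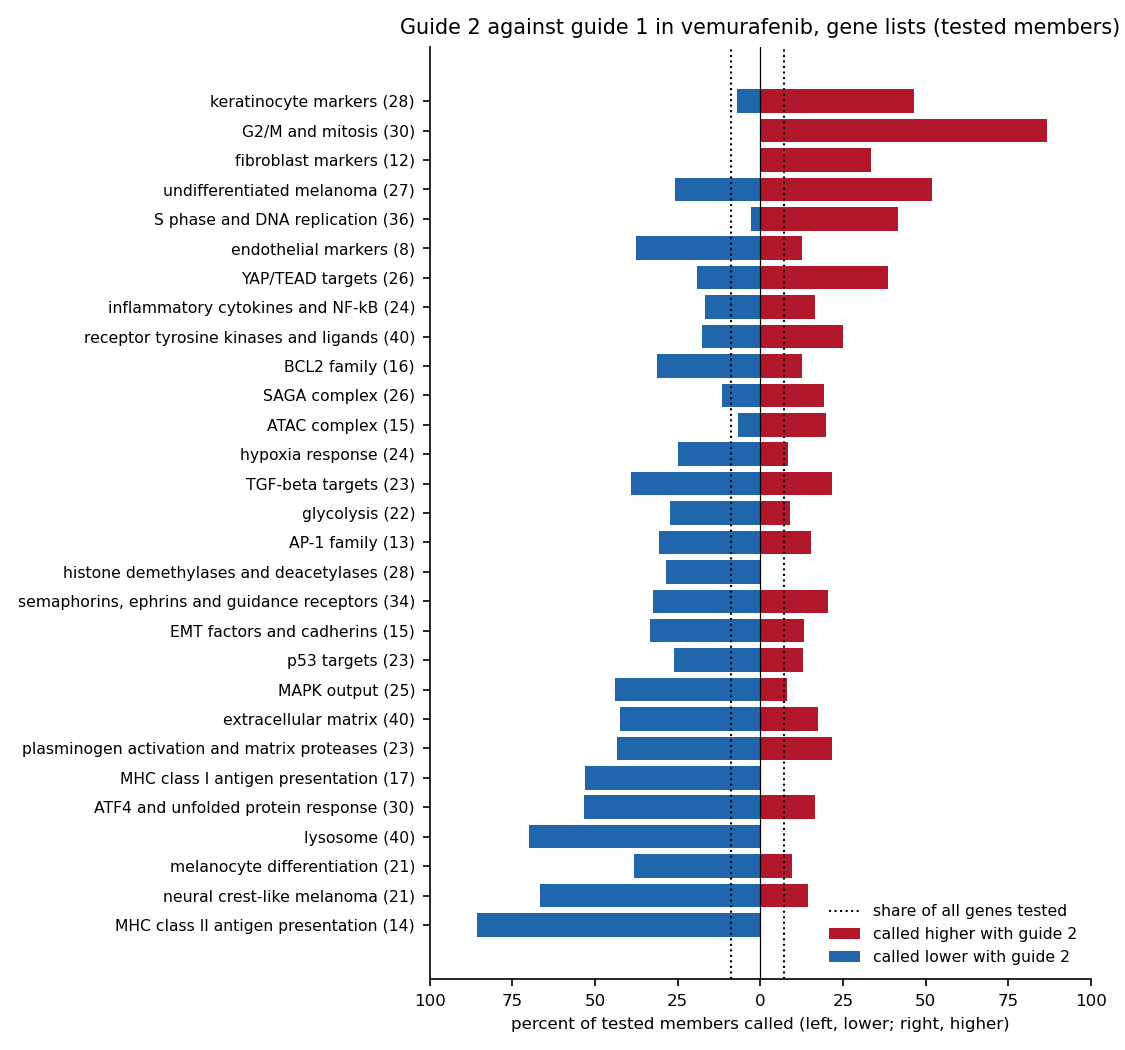
Percent of the tested members of 29 gene lists called higher (right, red) and lower (left, blue) with guide 2 against guide 1 in vemurafenib, ordered by median log2 fold change; tested members are in parentheses. Dotted lines mark the shares over all tested genes, 7.12% higher and 8.85% lower. Over well expressed genes the shares were larger, 11.2% higher and 13.7% lower.

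Among well expressed protein-coding genes whose guide libraries did not overlap, the 12 largest rises spanned 1.74-fold to 2.13-fold. ELF3 (chromosome 1, 202007945 to 202017188, plus strand), an epithelial transcription factor, rose the most, with 4.70, 5.44 and 4.10 CPM with guide 2, against 2.11, 2.42 and 2.17 CPM with guide 1 and under 0.4 CPM with the control guide. BMP5, a bone morphogenetic protein, rose 1.98-fold, with 4.65, 4.93 and 4.82 CPM with guide 2 and 2.49, 2.19 and 2.57 CPM with guide 1. MAP1LC3C, a homologue of the autophagy protein LC3, rose 1.94-fold, with 29.5, 29.05 and 27.6 CPM with guide 2 and 14.3, 15.6 and 14.6 CPM with guide 1. Non-overlap was a condition of choice here. For these 3 genes the guide 1 libraries lay above the control mean. The alkaline phosphatases ALPP (1.9-fold, 56.3 CPM on average with guide 2) and ALPG (1.78-fold) stood together, but their sequences are nearly identical and the counting may split reads between them. The scaffold protein IQGAP2 rose 1.84-fold, with 14.7, 15.0 and 16.3 CPM with guide 2 and 8.19, 7.80 and 8.97 CPM with guide 1. The rest were the platelet receptor PEAR1 (1.94-fold), the integrin chain ITGA8 (1.78-fold), the ubiquitin ligase SH3RF2 (1.78-fold), the lipopolysaccharide hydrolase AOAH (1.76-fold), the transcription factor CREB3L3 (1.75-fold) and SDAD1 (1.74-fold).

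SDAD1, a ribosome biogenesis gene, was the least even of them, with 126, 122 and 110 CPM with guide 2 and 87.2, 60.7 and 58.0 CPM with guide 1 (adjusted p = 0.00228). Its call was lost when the 6 libraries were fitted alone (adjusted p = 0.0711). SDAD1 also varied within DMSO groups, at 115.5 ± 32.2 CPM with guide 2, 145.0 ± 5.5 CPM with guide 1 and 113.9 ± 23.5 CPM with the control guide (SD, n = 3 each). In trametinib it averaged 58.4 CPM with guide 2 and 56.9 CPM with guide 1. In all 12 genes the mean of guide 1 lay between those of guide 2 and the control guide, for SDAD1 narrowly (68.6 against 67.2 CPM with the control guide). That order was not counted over all genes.

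The 12 largest falls were larger, between 2.45-fold and 3.25-fold. KCNJ10 (chromosome 1, 159998651 to 160070483, minus strand), an inward rectifier potassium channel, had 2.68, 3.11 and 2.55 CPM with guide 2, against 9.68, 8.63 and 8.86 CPM with guide 1 and 26.8, 29.8 and 25.7 CPM with the control guide (log2 -1.70 ± 0.11). The collagenase MMP8 fell 3-fold, with 3.31, 3.44 and 4.00 CPM with guide 2 and 10.8, 11.0 and 10.5 CPM with guide 1. CCN3 (chromosome 8, 119416306 to 119424353, plus strand), a secreted matricellular protein, fell 2.82-fold at a high level, with 103, 104 and 104 CPM with guide 2, against 290, 289 and 299 CPM with guide 1 and 419.9 CPM on average with the control guide (log2 -1.50 ± 0.031, adjusted p = 1.29e-36). The spread between its libraries was far smaller than the difference. MOXD1, a relative of dopamine beta-hydroxylase, fell 2.63-fold, with 66.5, 68.3 and 62.4 CPM with guide 2 and 171, 179 and 168 CPM with guide 1. FREM2, a basement membrane protein, fell 2.62-fold, with 34.2, 34.7 and 36.8 CPM with guide 2 and 91.9, 93.5 and 91.8 CPM with guide 1. TRPM3, a cation channel, fell 2.45-fold, with 9.14, 9.06 and 9.61 CPM with guide 2 and 22.4, 22.1 and 23.5 CPM with guide 1. Libraries of the guides did not overlap for any of these genes, because the rule of choice required it. The rest were the secreted protein ANGPTL7 (2.83-fold), the adhesion protein FLRT1 (2.6-fold), the kinase AATK (2.59-fold), SCRG1 (2.56-fold), the arginine deiminase PADI2 (2.56-fold) and the homeobox factor PKNOX2 (2.56-fold). Here too the guide 1 mean lay between guide 2 and the control guide for all 12. The order was not counted over all genes, so it describes these extremes only. AXL, CCND1, DLGAP5 and HLA-B did not follow it.

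Of 39 lists, 29 are described, namely 7 described in any case and those with at least 8 tested members whose share called was at least 1.5 times that of all genes or whose median lay at least 0.15 from theirs. The share called was 16% of all tested genes but 24.9% of well expressed genes. A list of well expressed genes at their ordinary share thus met the rule, so being described does not mean that a list stands out. In the 10 lists not described, between 0% and 25% of members were called, among them MYC targets (12.5%), HOX genes (10.5%) and interferon response genes (21.4%). Lysosome genes, which encode the hydrolases and membrane proteins of the degradative compartment, were called lower for 28 of 40, and the other 12 were not called (median -0.14). The calcium channel MCOLN1 had 16.0, 16.8 and 15.8 CPM with guide 2 and 19.5, 21.2 and 20.1 CPM with guide 1, and the protease CTSD had 123, 121 and 106 CPM with guide 2 and 146, 144 and 145 CPM with guide 1. Of 30 ATF4 and unfolded protein response genes 16 were called lower and 5 higher; DDIT4, an inhibitor of mTORC1, fell 1.64-fold, and the stress factor NUPR1 rose 1.52-fold. Extracellular matrix genes were called lower for 17 of 40 and higher for 7. NID1, a basement membrane linker, had 379, 378 and 380 CPM with guide 2 and 632, 654 and 656 CPM with guide 1, whereas COL3A1 was higher at under 1.1 CPM (log2 0.83 ± 0.24, adjusted p = 0.00955, but 0.059 without replicate 3 of guide 2). Among 23 plasminogen and matrix protease genes 10 were called lower and 5 higher, with MMP15, a membrane-bound metalloprotease, at 23.1, 22.0 and 18.6 CPM with guide 2 and 43.1, 45.2 and 44.1 CPM with guide 1.

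Signalling genes of the cell surface were mixed. The share called was 42.5% of receptor tyrosine kinases and ligands, 52.9% of semaphorin, ephrin and guidance genes and 60.9% of TGF-beta targets. It was 46.7% of EMT factors and cadherins and 57.7% of YAP/TEAD targets, against 24.9% of well expressed genes. Of 40 receptor tyrosine kinases and ligands 10 were called higher and 7 lower, among them the VEGF receptor FLT1 (2.42-fold lower) with 3.36, 2.31 and 2.61 CPM with guide 2 and 6.76, 7.25 and 6.05 CPM with guide 1. Of 34 semaphorin, ephrin and guidance genes 11 were called lower and 7 higher, with NRP2, a co-receptor for semaphorins, at 138, 138 and 139 CPM with guide 2 and 266, 270 and 284 CPM with guide 1, and the ephrin receptor EPHB3 1.76-fold lower. TGF-beta targets had 9 of 23 called lower and 5 higher; PMEPA1, a feedback inhibitor of the pathway, fell 1.99-fold, with 47.7, 46.4 and 47.3 CPM with guide 2 and 93.0, 93.4 and 94.5 CPM with guide 1, and the integrin chain ITGB3 fell 1.58-fold. Of 15 EMT factors and cadherins 5 were called lower and 2 higher. ZEB2, a repressor of epithelial genes, had 64.0, 63.9 and 70.9 CPM with guide 2 and 139, 139 and 140 CPM with guide 1 (log2 -1.07 ± 0.036), and SNAI2 fell 1.78-fold. YAP/TEAD targets were called higher for 10 of 26 and lower for 5, with ANKRD1 1.44-fold higher and CCN2 1.51-fold lower.

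Marker lists of other cell types also held called genes. The share called was 53.6% of keratinocyte genes and 50% of endothelial genes, against 24.9% of well expressed genes. Of 28 tested keratinocyte genes 13 were called higher and 2 lower (median 0.31), with the adaptor SFN at 10.4, 9.85 and 9.87 CPM with guide 2 and 5.76, 5.65 and 5.88 CPM with guide 1, and the desmosome protein PKP2 1.6-fold higher. The summed level of the 6 defining keratinocyte markers, KRT14 and KRT15 above all, lay between 19.2 and 21.7 CPM with guide 2 and between 22.0 and 23.3 CPM with guide 1. Of 12 fibroblast genes 4 were called higher and the other 8 were not called (33.3%). Of well expressed genes 24.9% were called in either direction and 11.2% were called higher. COL1A1 had 24.1, 22.7 and 21.5 CPM with guide 2 and 15.6, 15.6 and 15.8 CPM with guide 1. The 6 defining fibroblast markers summed to 70.3 to 73.3 CPM with guide 2 and 56.5 to 57.0 CPM with guide 1. Whether another cell type had a part in these values was not tested. Of 8 tested endothelial genes 3 were called lower and 1 higher, with the VEGF receptor KDR 1.73-fold lower and the angiopoietin receptor TEK 1.44-fold higher; 2 of the 4 calls were lost without replicate 1 or replicate 3 of guide 1. The 5 defining endothelial markers summed to between 4.58 and 6.04 CPM with guide 2 and between 5.50 and 5.67 CPM with guide 1.

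Of 22 glycolysis genes 6 were called lower and 2 higher (36.4%, against 24.9% of well expressed genes). Hexokinase HK2 stood at log2 -0.31 and the lactate exporter SLC16A3 at 0.33. Of 24 hypoxia genes 6 were called lower and 2 higher (33.3%, not far above the same 24.9%). Carbonic anhydrase CA9 rose 1.84-fold, with 1.47, 1.55 and 1.14 CPM with guide 2 and 0.784, 0.760 and 0.722 CPM with guide 1. The kinase AK4 rose 1.33-fold. Inflammatory genes had 4 of 24 called in each direction (33.3%). Their list holds low genes such as CXCL10, and 24.9% of well expressed genes but 16% of all tested genes were called. IL24, a cytokine, had 5.71, 5.49 and 5.67 CPM with guide 2 and 10.7, 12.4 and 12.7 CPM with guide 1 (log2 -1.09 ± 0.074), and the chemokine CXCL10 had 3 counts in all with guide 2 and 24 with guide 1, a ratio of 0.126 (95% exact binomial interval 0.0242 to 0.413, counting error only) whose call (adjusted p = 0.0153) was lost without replicate 2 of guide 1 (0.0577) or without replicate 1 or 3 of guide 2 (0.0506 and 0.0743).

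The same guides were set against each other in the other treatments, with libraries that share none with the vemurafenib comparison. In trametinib 4954 genes were called (19.7%), 2710 higher (10.8%) and 2244 lower (8.91%). In DMSO 3008 were called (11.9%), 1170 higher (4.64%) and 1838 lower (7.29%). Of the genes higher in vemurafenib, 1290 were also called higher in trametinib (71.9% of the vemurafenib list and 47.6% of the trametinib list), and 1 was called lower. Of the genes lower in vemurafenib, 1610 were also called lower in trametinib (72.2% and 71.7%), and 6 were called higher. With DMSO the shared genes numbered 564 higher (31.4% of the vemurafenib list, 48.2% of the DMSO list) and 1084 lower (48.6% and 59%), with 48 and 41 of opposite sign. Across 14191 well expressed genes, which are not independent replicates, the log2 differences had a Pearson r of 0.867 with trametinib and 0.639 with DMSO.

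The guide difference was also set beside guide 1 minus the control guide in the treatments that share no library with it. In trametinib that contrast ran the same way as the guide difference for 70% of the genes higher and 67.3% of the genes lower with guide 2, and the opposite way for 12.3% and 14%; over all tested genes 49.4% were called, 23.6% higher and 25.8% lower. In DMSO the shares were 49.2% and 43.1% the same way and 31.1% and 31.3% the opposite way, with 52% called over all tested genes, 26.9% higher and 25.1% lower.

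A test of the difference between the guide differences in vemurafenib and in DMSO called 1021 genes (4.05%), 506 upward (2.01%) and 515 downward (2.04%). The guide difference of JUN was -1.15 in vemurafenib and 0.31 ± 0.047 in DMSO, where JUN averaged 16.5 CPM with guide 2 and 13.3 CPM with guide 1. CCN3 fell with guide 2 in vemurafenib but had 35.2 CPM with guide 2 and 36.8 CPM with guide 1 in DMSO, which was not called (log2 -0.06, adjusted p = 0.3). ENTREP2 fell 2.35-fold in vemurafenib, with 3.70, 4.47 and 3.00 CPM with guide 2 and 8.49, 8.63 and 9.15 CPM with guide 1, and stood at 0.48 in DMSO (adjusted p = 0.0714). NAV2, a neuron navigator protein, fell 2.04-fold in vemurafenib and was called higher in DMSO (log2 0.39).

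In the other direction, the netrin receptor UNC5C was called higher in vemurafenib (log2 0.55 ± 0.057), with 40.3, 38.3 and 39.5 CPM with guide 2 and 25.6, 26.7 and 28.0 CPM with guide 1, and lower in DMSO (-0.77). CD24, a surface glycoprotein whose reads can be shared with pseudogene copies, was called higher in vemurafenib (0.50 ± 0.068) and lower in DMSO (-0.70). LOXL4, a lysyl oxidase of the matrix, had 149, 143 and 138 CPM with guide 2 and 132, 142 and 134 CPM with guide 1 in vemurafenib, which overlapped and was not called (0.08), while it was lower in DMSO (-0.97, adjusted p = 4.25e-28). LOXL4 did pass in vemurafenib without replicate 2 of guide 1 or replicate 3 of guide 2 (adjusted p = 0.0314 and 0.0251).

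**Figure D5:**
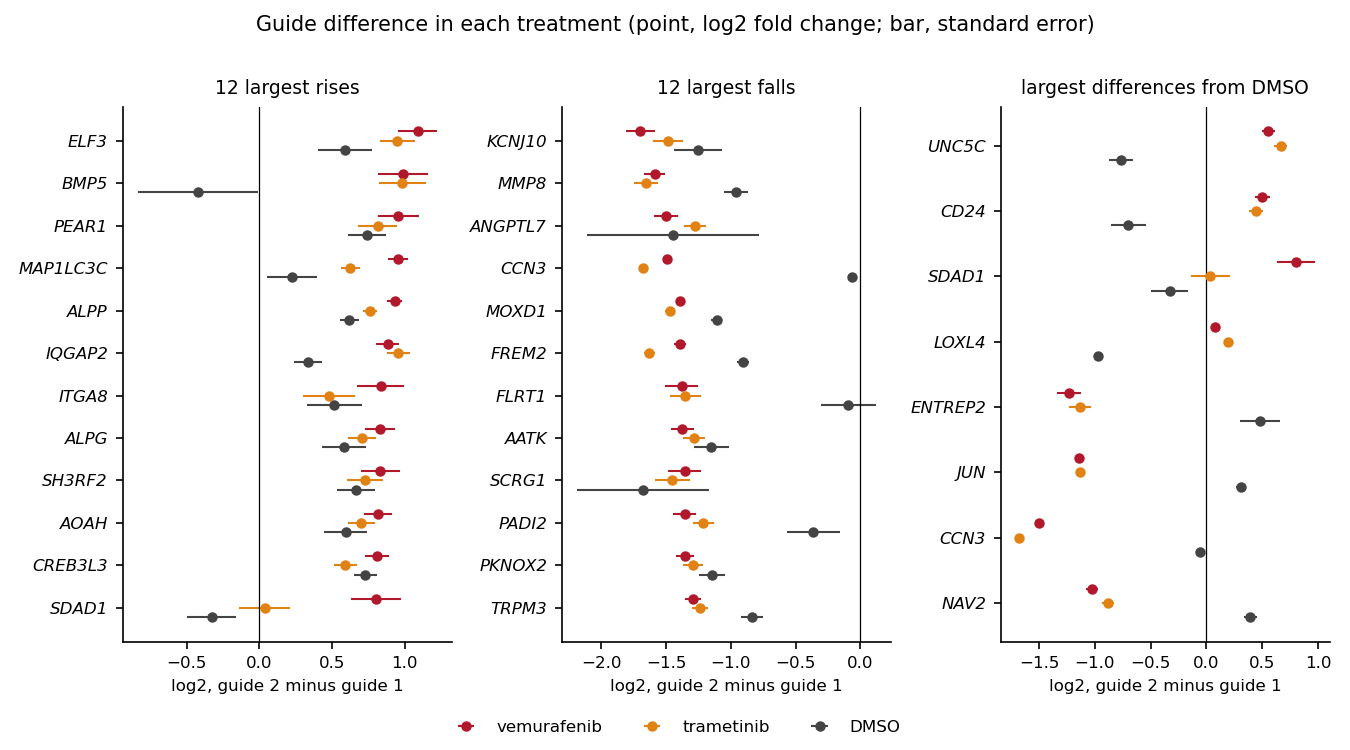
Log2 fold change of guide 2 minus guide 1 in vemurafenib, trametinib and DMSO for the 12 largest rises, the 12 largest falls and the genes with the largest difference between vemurafenib and DMSO, with standard errors as bars. For the 12 falls the vemurafenib and trametinib points lie between -1.7 and -1.2, while the DMSO points of CCN3, FLRT1 and PADI2 lie nearer 0.

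The guide differences in vemurafenib and in trametinib were called different for 47 genes (0.187%), 15 upward (0.0595%) and 32 downward (0.127%). That number depended on 1 library: without replicate 3 of guide 2 in vemurafenib it was 263, 45 upward and 218 downward. DUSP6 was among the 47, with a guide difference of -0.92 in vemurafenib and -0.16 in trametinib, where it averaged 0.717 CPM with guide 2 and 0.807 CPM with guide 1. KAT2B differed as well, at -0.80 in vemurafenib and -0.56 in trametinib.

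The guide difference was also laid out by position along the genome, for genes at a mean of at least 1 log2 CPM. Over 295 windows of 10 Mb, the median guide difference lay between -0.117 and 0.131, and 2 windows lay beyond 0.1 in size. Among the chromosomes, the median was highest on chromosome 19 (0.0438). Of its 779 well expressed genes outside the ZNF family, 144 were called higher (18.5%) and 52 lower (6.68%), against 11.2% and 13.7% of all well expressed genes, with a median of 0.053 in vemurafenib, 0.042 in trametinib and 0.0514 in DMSO. Of its 219 ZNF genes, 6 were called higher and 5 lower. Per library, the centred median of the genes outside the ZNF family ranged from -0.0389 to 0.065 with guide 2 and from -0.0325 to -0.0195 with guide 1, which overlapped, and without replicate 3 of guide 2 the count was 214 higher and 37 lower. Within 1 Mb of TADA2B, 5 of 23 tested genes were called (21.7%, against 16% of all tested genes). PSAPL1 (log2 1.05, at 1.18 CPM with guide 2 and 0.572 CPM with guide 1) and WFS1 (0.19) were higher, and SORCS2 (-0.80), PPP2R2C (-0.48) and TBC1D14 (-0.15) were lower.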

How the data were processed

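RNA was sequenced from A375 cells with a stranded polyA kit, per the labels' protocols. The authors deposited 1 table of raw read counts per gene, which the submitters' processing notes tie to bcl2fastq, HISAT2, HTSeq and build hg38. The labels and the file header name no version, annotation or strand setting. All 58721 identifiers matched GENCODE 29.

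Groups came from the labels. edgeR 4.0.16 (R 4.3.3, limma 3.58.1) fitted all 27 libraries as 9 group means with TMM factors (0.866 to 1.09), leaving 18 residual degrees of freedom. Its low-count filter kept 25199 genes, tested by the quasi-likelihood test with Benjamini-Hochberg adjustment. Genes under an adjusted p of 0.05 were called. A difference between treatments is an interaction term. CPM was computed from the counts and the TMM factors. The fit was tried on simulated counts for the guide comparison in vemurafenib alone. Changes were set in a limited number of genes at higher counts, with no other group differences. Changes in low-count genes and the interaction tests were not covered. Promoters came from RefSeq (GRCh38.p14), searched on both strands.

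Members and lists were chosen with earlier results of these data known. Genes named were the 12 largest rises and 12 largest falls among called protein-coding genes of at least 1 log2 CPM with separate libraries, 4 interaction genes in each direction, 2 to 4 called members per list with the largest change, and TADA2B, MITF, SOX10, DUSP6, SPRY4, CCND1, AXL, NGFR and EGFR. The number per list (4 for 6 lists, otherwise 2) was set after values were seen. Other members (PLK1 and CCNB2 included) and genes near TADA2B were picked after their values were seen, as were the chromosome 19 set and the overlap with guide 1 minus the control guide. Alternatives were other scalings, tools and filters (DESeq2 1.42.0, limma voom), only the libraries compared, a replicate block, and leaving out each library. Intervals cover counting error only.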

Additional observations from a re-analysis of the deposited data

Results flagged for a closer look

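Guide differences that changed with the treatment were picked out by the interaction test, 1021 genes between vemurafenib and DMSO and 47 between vemurafenib and trametinib. Of 100 named genes, 50 differed between vemurafenib and DMSO and 4 between vemurafenib and trametinib. Each value below is the guide difference (guide 2 minus guide 1, log2) in vemurafenib minus that in the other treatment.

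Against DMSO, the differences among the 12 largest rises were 0.73 for MAP1LC3C, 0.31 for ALPP, 0.55 for IQGAP2 and 1.13 for SDAD1. Among the 12 largest falls they were -0.63 for MMP8, -1.44 for CCN3, -0.28 for MOXD1, -0.49 for FREM2, -1.29 for FLRT1, -0.99 for PADI2 and -0.45 for TRPM3. Genes named for this test had 1.32 for UNC5C, 1.20 for CD24, 1.05 for LOXL4, -1.71 for ENTREP2, -1.46 for JUN and -1.42 for NAV2. The SDAD1 difference did not pass with only the compared libraries fitted (1.13, adjusted p = 0.107), and the guide 2 libraries of SDAD1 in DMSO varied widely (SD 32.2 CPM).

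MAPK genes had -0.77 for DUSP6, 0.62 for SPRY4, 0.47 for CCND1 and -0.26 for DUSP4. Melanoma state genes had -0.40 for NGFR, -1.22 for BCL2A1, -0.46 for GDNF and 0.27 for CAV1. TYR had -6.26, a fitted value that rests on a group at 0 counts and is no bound. AP-1 genes had -0.39 for FOS, -1.10 for ATF3 and -0.72 for FOSL2, all downward as for JUN. KAT2B had -0.58 and KDM7A -0.27. Cell cycle genes had 0.29 for DLGAP5, 0.66 for POLE2, 0.71 for E2F2 and -0.18 for CDKN1A, and PMAIP1 had 0.38.

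Of the remaining genes, CIITA had -0.19, CTSD -0.23, NID1 -0.42, CCN2 -0.86, ANKRD1 0.40, PMEPA1 -0.46 and ITGB3 0.23. ZEB2 had -0.72, SNAI2 -0.47, CA9 1.24, AK4 0.64, IL24 -0.87, MMP15 -0.33 and NRP2 -0.40. Against trametinib, DUSP6 had -0.75, DUSP4 0.28, KAT2B -0.24 and FOSL2 0.32.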

How the results depend on the processing

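The count of 4026 genes lay between 3283 (only the 6 libraries fitted) and 4376 (DESeq2), and between 3235 and 3988 with 1 library left out. Genes at least 2-fold apart, 290, ranged from 255 to 277 with 1 library left out and numbered 97 (5 higher, 92 lower) under a filter at a mean of 1 CPM, which removes low genes. With only the libraries compared, the DMSO count was 4163, above the vemurafenib count of 3283, so the order of these counts turned. The DMSO count of 3008 ranged from 2300 to 2474, the trametinib count of 4954 from 3999 to 4350, and the vemurafenib against DMSO count of 1021 from 816 to 1066, each with 1 library left out. The vemurafenib against trametinib count of 47 became 97 with DESeq2, 79 with no filter, 25 with only the libraries compared, and 31 to 263 with 1 library left out; 263 came without vemurafenib replicate 3 of guide 2 and 31 without trametinib replicate 2 of guide 2. The cause was not tested. The labels do not say whether replicate numbers pair cultures. Deviations of same-numbered vemurafenib libraries of the guides had r of -0.0239, 0.0368 and 0.0636. No shared replicate effect was visible, which cannot show that cultures were unpaired. With a replicate block the counts were 3967 in vemurafenib (283 at least 2-fold), 2923 in DMSO and 4879 in trametinib. The counts against DMSO and against trametinib were then 1001 and 45. Of 100 named genes, 8 changed call under some alternative, and LOXL4 also passed under the stricter filter (adjusted p = 0.0365). Depth limited the values of genes under 1 CPM, such as TYR, CXCL10, GFRA2 and COL3A1.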
